A study of Mus musculus with 107 samples.

Results

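Neural progenitor cells (NPC) left to differentiate for 4 days with ciliary neurotrophic factor (CNTF) were compared with NPC left to differentiate for 4 days with insulin-like growth factor 1 (IGF-1). The libraries were taken by their titles and are 4 CNTF and 4 IGF-1 libraries, 8 of the 107 in the series. The comparison itself was chosen with earlier results of these data known. The series profiled NPC in culture, NPC grafted into mouse spinal cord, and host astrocytes, all through RNA bound to tagged ribosomes. The factors were added to learn how different signals steer the same progenitors, CNTF towards astrocytes and IGF-1 towards oligodendroglia. All cells of this comparison came from 1 female mouse embryonic stem cell line on a C57BL/6 background in which the RiboTag allele had been recombined by Cre, so that every cell carried ribosomal protein Rpl22 with a haemagglutinin (HA) tag. Both groups were in neural expansion medium in which EGF and FGF had been lowered from 100 to 1 ng/ml, and either CNTF or IGF-1 was added at 100 ng/ml. The same medium without an added factor gave 4 libraries of spontaneously differentiated cells (SPONT). A further 4 libraries with 5% fetal bovine serum (FBS), 4 with 5% FBS plus CNTF and 4 with 1% FBS are used below. So are 4 libraries of NPC at passage 15, cultured with EGF and FGF at 100 ng/ml. Since every library rests on a single line, the spread between replicates holds no variation between lines or animals. The labels do not say whether replicates were separate cultures, so that a p-value measures the spread between these libraries, which may be technical. In these mixed cultures a smaller share of cells of one type and less RNA per cell of that type cannot be told apart.

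CNTF binds a receptor complex of Cntfr, Lifr and the shared chain Il6st (gp130), whose Jak kinases phosphorylate the transcription factor Stat3. Stat3 switches on its own inhibitor Socs3 and, in the central nervous system, Gfap and other genes of astrocytes and of astrocyte reactivity. IGF-1 binds the receptor kinase Igf1r, which works through insulin receptor substrates, PI3 kinase and Akt and is known for promoting growth and survival and for promoting myelination by oligodendrocytes.

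Read counts summed to between 55269375 and 74847119 per CNTF library and between 70773147 and 77968355 per IGF-1 library. One entry without a matched symbol took between 1.74% and 9.89% of all counts in the IGF-1 libraries and between 6.26% and 7.03% in the CNTF libraries, and it was kept. Levels are given below as CPM, each count scaled to a library total of 1000000, and fold changes use TMM scaling. Libraries of the same treatment correlated between 0.990 and 0.993 and libraries of different treatments between 0.965 and 0.970 (Pearson's r of log2 CPM across genes, a description), and the first principal component, with 67.2% of the variance, separated the groups. Markers of cells that should be absent were low: of 15 microglia and myeloid markers 6 passed the filter on low counts, and of 8 pluripotency markers 3 passed it, while Pou5f1 was at 0 in all 8 libraries. Both groups held astrocyte and oligodendrocyte lineage transcripts at high levels. Gfap, the astrocyte intermediate filament, measured 21571, 22165, 22548 and 22050.4 CPM in the CNTF libraries and 13715, 14614, 12973 and 13454 CPM in the IGF-1 libraries, against 13.3 to 17.8 CPM in NPC at passage 15. Olig2, the transcription factor of the oligodendrocyte lineage, measured 683 to 731 CPM in CNTF and 597 to 716 CPM in IGF-1 (log2 fold change 0.05 ± 0.05, adjusted p = 0.43).

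CNTF and IGF-1 left broadly different transcriptomes. Of 15014 genes tested, 2817 were higher in CNTF and 2827 were higher in IGF-1 at an adjusted p below 0.01 (edgeR's quasi-likelihood test with Benjamini-Hochberg adjustment, used for every adjusted p below), which is 37.6% of the genes tested, 18.8% in each direction. Positive log2 fold changes are higher in CNTF throughout, and each is given ± its standard error. The median absolute change of these differentially expressed genes was 0.51, and the smallest was 0.15, so that most calls were small differences measured with little spread. More than 2-fold changes numbered 702 towards CNTF and 591 towards IGF-1, more than 4-fold changes 211 and 156, and more than 8-fold changes 69 and 39. In 6181 genes, 41.2% of those tested, the 4 libraries of one treatment lay entirely above the 4 of the other. The median log2 fold change over all genes was -0.01. Counts of gene lists below stand beside the share of 18.8% in each direction.

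The genes furthest towards CNTF were mostly at a few CPM or less with IGF-1. Cdsn, which encodes corneodesmosin, an adhesion protein of skin, measured 69.5, 75.1, 71.4 and 77.2 CPM in the CNTF libraries and 0.933, 1.18, 0.841 and 0.795 CPM in the IGF-1 libraries (log2 fold change 6.25 ± 0.09, adjusted p = 3.5e-17), a fold of 76.0. Ccn5, a secreted matricellular protein, measured 39.6, 40.1, 40.2 and 39.5 CPM against 0.410, 0.879, 1.11 and 0.590 CPM (log2 fold change 5.69 ± 0.16, adjusted p = 9.6e-14). Itih4, an acute phase plasma protein made by liver, measured 10.3, 9.93, 10.5 and 9.45 CPM against 0.0848, 0.234, 0.224 and 0.205 CPM (log2 fold change 5.68 ± 0.18, adjusted p = 2.4e-13). In each of these genes the libraries of one treatment differed little among themselves beside the gap between the treatments. That the libraries of the treatments were apart was a condition for naming them here. Cyp4b1, a cytochrome P450 (5.59 ± 0.10), Bcl3, a nuclear partner of NF-kappaB (5.02 ± 0.09), Ppl, which links intermediate filaments to the cell cortex (4.73 ± 0.11), and Cacng5, an auxiliary subunit of AMPA receptors (4.65 ± 0.06), followed. The remaining genes among the 12 with the largest changes were C1qtnf1 (4.60 ± 0.09), the cation channel Trpc4 (4.36 ± 0.16), the fatty acid transport protein Slc27a3 (4.28 ± 0.06), the metalloreductase Steap4 (4.10 ± 0.09) and the iron-siderophore binder Lcn2 (3.93 ± 0.08). Slc27a3 measured 381 ± 9.11 against 19.1 ± 2.05 CPM (mean ± SD, n = 4 each).

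Within the same limits, the genes furthest towards IGF-1 were of several kinds. Pygm, the muscle form of glycogen phosphorylase, measured 2.40, 1.85, 1.50 and 1.70 CPM in CNTF and 37.7, 37.2, 32.4 and 32.6 CPM in IGF-1 (log2 fold change -4.25 ± 0.11, adjusted p = 2.8e-14). Cidea, a lipid droplet protein of brown fat, measured 2.14, 1.70, 2.21 and 1.01 CPM against 30.8, 33.2, 36.2 and 29.3 CPM (log2 fold change -4.24 ± 0.16, adjusted p = 3.6e-12). Both were higher in every IGF-1 library than in any CNTF library, which the rule for naming these genes required. Cox8b, a subunit of cytochrome c oxidase (-3.33 ± 0.16), Myh8, a myosin heavy chain (-3.27 ± 0.13), and Pcp4, a calmodulin regulator (-3.98 ± 0.14), were further transcripts known best from muscle or neurons. The secreted factor Bmp4 (-3.11 ± 0.07), described below, also reached this group. Other members of the 12 were Dusp15 (-2.90 ± 0.08), a phosphatase, St8sia5 (-2.86 ± 0.11), a sialyltransferase, Ptprt (-2.76 ± 0.12), a receptor phosphatase, Ppp2r2c (-2.71 ± 0.08), a regulatory subunit of phosphatase 2A, and Eva1a (-2.71 ± 0.10).

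**Figure D1:**
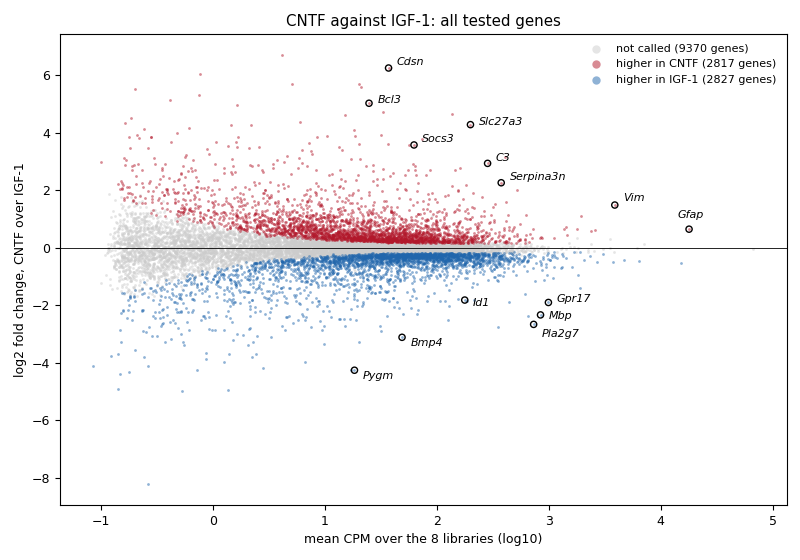
The fold change of each gene tested (log2 of CNTF over IGF-1, vertical axis) is plotted against its mean level over the 8 libraries (CPM, horizontal log10 axis), with differentially expressed genes coloured by direction. Coloured points lie on both sides in near equal number, 2817 above and 2827 below the line of no change.

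Single genes on the receptor side of CNTF signalling differed in both directions. Of the gp130 cytokine receptors, ligands and kinases, 5 of 14 tested members (35.7%) were higher in CNTF and 3 (21.4%) in IGF-1. Over all genes tested the share was 18.8% in each direction. The median log2 fold change of the list was 0.02, against -0.01 for all genes. Cntfr, the binding chain of CNTF, measured 40.7, 36.6, 33.1 and 40.5 CPM with CNTF and 68.2, 72.0, 62.5 and 58.3 CPM with IGF-1 (log2 fold change -0.83 ± 0.07, adjusted p = 4.9e-08). Lifr, its signalling partner, was likewise lower with CNTF, at 17.2 ± 1.70 against 26.2 ± 2.61 CPM (log2 fold change -0.64 ± 0.07, adjusted p = 2.7e-06). The libraries did not overlap for either receptor chain, whereas Il6st, the shared gp130 chain, measured 158 to 174 CPM in CNTF and 155 to 185 CPM in IGF-1 with overlapping libraries (-0.12 ± 0.05, adjusted p = 0.069). Osmr, which pairs with gp130 to receive oncostatin M, went the other way, at 47.9, 52.0, 47.4 and 49.3 CPM against 8.56, 10.7, 7.71 and 9.43 CPM (log2 fold change 2.39 ± 0.07, adjusted p = 1.6e-13). The kinase Jak2 (0.54 ± 0.07) was higher in CNTF, and Il11ra1, the interleukin 11 receptor (-0.57 ± 0.07), was higher in IGF-1.

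Of the STAT3 pathway and its feedback genes, 17 of 24 tested members were higher in CNTF and 1 in IGF-1, with a median of 0.63. Socs3, the inhibitor that Stat3 induces against gp130 receptors, measured 67.3, 69.5, 149.8 and 177 CPM in the CNTF libraries and 10.4, 10.3, 7.54 and 9.61 CPM in the IGF-1 libraries (log2 fold change 3.57 ± 0.27, adjusted p = 1.3e-08). Every CNTF library was above every IGF-1 library, and CNTF replicates 3 and 4 were both more than 2 times replicates 1 and 2. Stat3 itself measured 298, 313, 292 and 315 CPM against 168, 178, 142 and 159 CPM (log2 fold change 0.87 ± 0.05, adjusted p = 3.6e-10). Bcl3 measured 51.5, 49.3, 43.0 and 49.2 CPM against 1.36, 1.58, 1.50 and 1.32 CPM, and the transcription factor Cebpd 254, 236, 258 and 248 CPM against 65.9, 63.2, 54.8 and 59.9 CPM (log2 fold change 1.99 ± 0.05, adjusted p = 5.8e-14). Junb, an AP-1 subunit, measured 96.0, 97.1, 202 and 215 CPM against 55.8, 62.8, 39.6 and 40.2 CPM (log2 fold change 1.59 ± 0.23, adjusted p = 2.4e-05) and showed the same split among CNTF replicates as Socs3. The exception in direction was Pim3, a serine/threonine kinase, which measured 46.3 ± 2.21 against 97.7 ± 8.08 CPM (log2 fold change -1.12 ± 0.05, adjusted p = 3.8e-11).

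Stat proteins bind the palindrome TTCNNNGAA, and promoters are shown for the 6 list genes that passed, differed by more than 4-fold and hold these letters in the bases printed. Of these, 4 were higher in CNTF, and the sialidase Neu4 and the phospholipase Pla2g7 were higher in IGF-1. At more than 2-fold there were 11 such list genes, 6 higher in CNTF and 5 in IGF-1. These limits were set after the values and sequences were seen. Promoters on a chromosome left out of the search are in neither count. The counts and their split by direction may therefore be incomplete. Each line gives the 250 bases before the annotated start of the gene, 5′ to 3′ on the strand of the gene, from RefSeq on GRCm38.p6, with matches to TTCNNNGAA in capitals. Because the motif is its own reverse complement, a match covers both strands.
Socs3 (chr11:117969367-117969616, minus strand): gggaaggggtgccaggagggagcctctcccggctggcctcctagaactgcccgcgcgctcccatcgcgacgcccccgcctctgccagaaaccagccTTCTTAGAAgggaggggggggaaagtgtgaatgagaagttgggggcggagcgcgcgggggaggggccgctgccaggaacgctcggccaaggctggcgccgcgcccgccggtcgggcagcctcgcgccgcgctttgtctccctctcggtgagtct
Steap4 (chr5:7960222-7960471, plus strand): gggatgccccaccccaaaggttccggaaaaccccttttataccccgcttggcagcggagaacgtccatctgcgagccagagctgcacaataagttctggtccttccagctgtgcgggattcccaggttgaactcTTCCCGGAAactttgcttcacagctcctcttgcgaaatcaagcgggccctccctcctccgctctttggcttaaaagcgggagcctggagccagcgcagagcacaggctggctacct
Gbp7 (chr3:142530086-142530335, plus strand): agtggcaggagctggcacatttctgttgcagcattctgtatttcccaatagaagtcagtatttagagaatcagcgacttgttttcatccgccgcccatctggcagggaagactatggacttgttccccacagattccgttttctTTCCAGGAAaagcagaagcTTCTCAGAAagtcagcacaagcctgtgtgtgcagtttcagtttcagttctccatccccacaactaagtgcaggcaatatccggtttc
Itih4 (chr14:30886226-30886475, plus strand): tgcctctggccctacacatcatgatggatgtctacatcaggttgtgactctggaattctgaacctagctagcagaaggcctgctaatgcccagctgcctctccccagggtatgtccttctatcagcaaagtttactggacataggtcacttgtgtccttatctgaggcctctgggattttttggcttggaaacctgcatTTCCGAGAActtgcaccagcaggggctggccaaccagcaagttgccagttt
Neu4 (chr1:94020243-94020492, plus strand): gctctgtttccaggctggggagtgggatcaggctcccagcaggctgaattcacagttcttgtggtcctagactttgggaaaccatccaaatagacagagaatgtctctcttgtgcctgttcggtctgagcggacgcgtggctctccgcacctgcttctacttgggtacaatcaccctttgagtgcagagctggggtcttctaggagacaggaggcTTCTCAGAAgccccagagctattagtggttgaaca
Pla2g7 (chr17:43568201-43568450, plus strand): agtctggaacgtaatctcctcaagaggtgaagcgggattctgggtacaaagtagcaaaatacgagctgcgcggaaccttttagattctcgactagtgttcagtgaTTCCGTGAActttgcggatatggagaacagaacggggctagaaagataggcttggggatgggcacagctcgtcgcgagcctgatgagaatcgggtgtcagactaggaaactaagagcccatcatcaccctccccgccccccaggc
The match in the Socs3 promoter starts at position -154 from the gene's start, that in Itih4 at -51, that in Neu4 at -35 and that in Pla2g7 at -145. Gbp7, an interferon-induced GTPase, holds 1 match at -106 and 1 at -87. The match in Steap4, at -116, and 1 of those in Gbp7 have the narrower form TTCCNGGAA, which is also its own reverse complement and is contained in the wider motif. Windows of 250 bases before and 50 after the start held TTCNNNGAA in 184 of 2809 windows of genes higher in CNTF (6.55%), in 175 of 2856 windows of genes higher in IGF-1 (6.13%), in 6.67% of the windows of all genes tested and in 8.30% of all 32851 windows of the table. Among genes that differed by more than 4-fold the shares were 9.33% towards CNTF (18 windows) and 4.65% towards IGF-1 (6 windows). The narrower form was in 1.28% and 0.875% of the windows of genes higher in CNTF and in IGF-1, against 1.15% of all windows. A match is a description of the letters in a window and not a binding site.

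Genes of astrocyte reactivity were among the clearest in favour of CNTF. Of the markers that rise in astrocytes after both inflammatory and ischaemic injury (pan-reactive markers), 12 of 13 tested members were higher in CNTF and 0 in IGF-1, with a median of 1.94, and the remaining member, the chemokine Cxcl10, did not pass (0.41 ± 0.21, adjusted p = 0.12, named after its value was seen). Lcn2, the secreted iron-siderophore binder, measured 61.5, 58.9, 62.2 and 58.5 CPM in CNTF and 3.70, 3.61, 3.57 and 4.45 CPM in IGF-1 (log2 fold change 3.93 ± 0.08, adjusted p = 2.4e-15). S1pr3, a sphingosine 1-phosphate receptor, measured 742, 751, 673 and 742 CPM against 82.4, 86.9, 70.5 and 74.3 CPM (log2 fold change 3.17 ± 0.05, adjusted p = 4e-16). The protease inhibitor Serpina3n measured 607, 629, 625 and 641 CPM against 130.0, 137, 117 and 122 CPM (log2 fold change 2.26 ± 0.05, adjusted p = 1.4e-15). The libraries of the treatments did not overlap for any of these genes. In SPONT, Serpina3n ran from 66.7 to 132 CPM and Lcn2 from 2.39 to 6.47 CPM. Steap4 (4.10 ± 0.09), the copper oxidase Cp (2.76 ± 0.05), the metalloproteinase inhibitor Timp1 (1.94 ± 0.11) and the hyaluronan receptor Cd44 (0.98 ± 0.06) rose as well. Aspg, an asparaginase (1.90 ± 0.31), stayed under 1 CPM on average in both groups.

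Markers tied to the inflammatory (A1) and the ischaemic (A2) forms of reactivity were both higher with CNTF. Of the A1 markers, 8 of 11 tested members were higher in CNTF and 1 in IGF-1 (median 1.10), and of the A2 markers, 7 of 12 tested members were higher in CNTF and 1 in IGF-1 (median 1.27). Among A1 markers, Serping1, the inhibitor of complement C1, measured 11.0, 11.0, 13.0 and 11.2 CPM against 0.820, 1.02, 0.729 and 1.65 CPM (log2 fold change 3.40 ± 0.18, adjusted p = 2.2e-10). The galactosyltransferase Ggta1 (2.58 ± 0.08), the interferon-induced GTPase Gbp2 (1.69 ± 0.05) and the class I molecule H2-D1 (0.56 ± 0.06, whose reads may be shared with near-identical H2 genes) were higher in CNTF too. The matrix protein Fbln5 was higher in IGF-1 (-1.06 ± 0.09). Among A2 markers, Cd14, the co-receptor for endotoxin, measured 23.7, 22.2, 24.1 and 24.9 CPM against 3.48, 3.54, 3.39 and 3.75 CPM (log2 fold change 2.70 ± 0.08, adjusted p = 1.4e-13). Tm4sf1 (2.69 ± 0.12), the pattern recognition protein Ptx3 (1.38 ± 0.09), Cd109 (1.28 ± 0.05) and Emp1 (1.25 ± 0.08) were higher with CNTF, and Sphk1, which makes sphingosine 1-phosphate, with IGF-1 (-0.68 ± 0.11).

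Complement, antigen presentation and acute phase genes followed the same side. Of complement components and regulators that passed the filter, 9 of 18 tested members were higher in CNTF and 0 in IGF-1 (median 0.64). C3, the central component, measured 515, 495, 501 and 507 CPM in CNTF and 71.8, 68.1, 58.3 and 58.5 CPM in IGF-1 (log2 fold change 2.93 ± 0.06, adjusted p = 1.2e-15). C4b measured 159, 148, 148 and 148 CPM against 23.7, 29.3, 20.3 and 16.9 CPM (log2 fold change 2.71 ± 0.10, adjusted p = 3e-12), with the caution that its reads can be shared with its near-identical copy C4a. The terminal pathway regulator Vtn (2.83 ± 0.07) and C1qtnf1 (4.60 ± 0.09, a C1q-related protein that is not part of the cascade) rose. Of antigen presentation and interferon response genes, 16 of 32 tested members were higher in CNTF and 4 in IGF-1 (median 0.33). Ifitm3, a membrane protein that blocks the entry of viruses (2.41 ± 0.08), Gbp3 (1.96 ± 0.13), the peptide transporter Tap1 (0.95 ± 0.07) and the factor Irf1 (0.80 ± 0.09) were higher in CNTF. The proteasome components Psmb10 (-0.82 ± 0.08) and Psme2 (-0.33 ± 0.07, not passing when the SPONT and 1% FBS libraries joined the same model, called the fit of 4 groups from here on) were higher in IGF-1. B2m, the light chain of class I molecules, measured 136 to 148 CPM in CNTF and 132 to 142 CPM in IGF-1 (0.04 ± 0.05, adjusted p = 0.59). Of iron and acute phase genes, 9 of 11 tested members were higher in CNTF and 1 in IGF-1 (median 1.48), led by Itih4, Lcn2, Cp and Itih3 (2.26 ± 0.06). The ferritin light chain Ftl1 was the exception (-0.65 ± 0.06).

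**Figure D2:**
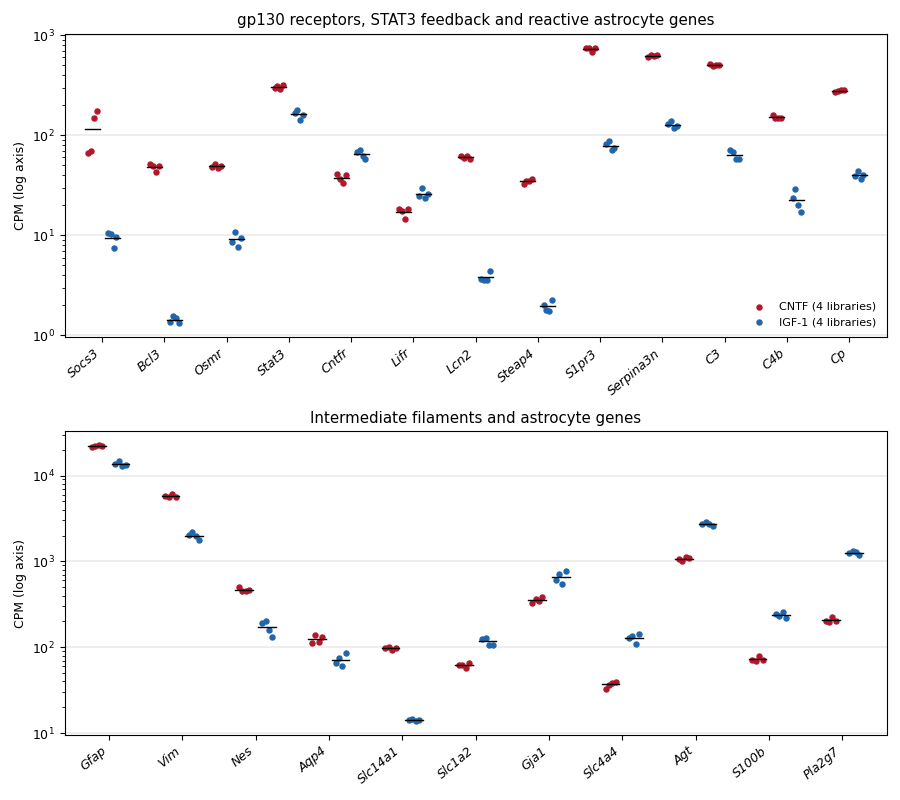
Levels in each library (CPM, logarithmic axis) are plotted for gp130 receptor, STAT3 feedback and reactive genes (upper part) and for filament and astrocyte genes (lower part), with the 4 CNTF and the 4 IGF-1 libraries as points and each mean as a bar. The Lcn2 points run over 58.5 to 62.2 CPM in CNTF and 3.57 to 4.45 CPM in IGF-1, and the Slc1a2 points over 57.8 to 65.2 CPM in CNTF and 107 to 129.8 CPM in IGF-1, so that the order of the treatments turns between these genes.

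Filament genes and genes of mature astrocyte function did not move together. Of the intermediate filament genes, 3 of 4 tested members were higher in CNTF and 0 in IGF-1 (median 1.03). Gfap, given above, was 1.57 times higher in CNTF (log2 fold change 0.65 ± 0.05, adjusted p = 7.7e-09). Vim measured 5713, 5654, 6061 and 5658 CPM against 2055, 2173, 1979 and 1797 CPM (log2 fold change 1.49 ± 0.06, adjusted p = 3e-12), and Nes, the filament of progenitors and reactive astrocytes, 507, 448, 449 and 461 CPM against 189.8, 203, 158 and 133 CPM (log2 fold change 1.41 ± 0.09, adjusted p = 1.2e-09). All 3 were higher in every CNTF library. Of the astrocyte transport, enzyme and junction genes, in contrast, 6 of 28 tested members were higher in CNTF and 16 in IGF-1 (median -0.31). Slc1a2, the main glutamate transporter of mature astrocytes, measured 62.4, 62.7, 57.8 and 65.2 CPM in CNTF and 124, 129.8, 107 and 107 CPM in IGF-1 (log2 fold change -0.96 ± 0.05, adjusted p = 4.9e-10). Gja1, the gap junction protein connexin 43, was also higher with IGF-1, at 355 ± 24.5 against 661 ± 106 CPM (-0.94 ± 0.08).

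The bicarbonate transporter Slc4a4 (-1.84 ± 0.07) and the cystine transporter Slc7a11 (-1.86 ± 0.05) were both more than 3 times higher in IGF-1. Against this direction, Slc14a1, the urea transporter, measured 97.0, 99.7, 94.0 and 97.6 CPM in CNTF and 14.3, 14.8, 13.9 and 14.3 CPM in IGF-1 (log2 fold change 2.72 ± 0.05, adjusted p = 9.2e-16). Gjb2, connexin 26 (1.76 ± 0.09), the water channel Aqp4 (0.75 ± 0.09) and the pump subunit Atp1b2 (0.57 ± 0.05) were higher in CNTF as well. Slc1a3, the glutamate transporter of radial glia and astrocytes, measured 314 to 391 CPM in CNTF and 293 to 404 CPM in IGF-1 with overlapping libraries (adjusted p = 0.90). Glutamine synthetase, Glul, was slightly higher in IGF-1 (-0.25 ± 0.06, adjusted p = 0.0012) although its libraries overlapped, and it did not pass in the fit of 4 groups.

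Of the secreted and other astrocyte markers, 8 of 33 tested members were higher in CNTF and 19 in IGF-1 (median -0.31). When the SPONT and 1% FBS libraries joined the fit (4 groups), 12 rather than 19 were called in IGF-1. Over all genes, the calls in IGF-1 fell from 2827 to 1773 in that fit. Pla2g7, which degrades platelet-activating factor, measured 202, 194.4, 223 and 202 CPM in CNTF and 1268, 1309, 1284 and 1181 CPM in IGF-1 (log2 fold change -2.66 ± 0.06, adjusted p = 8.9e-15). S100b, the calcium-binding protein, measured 70.5, 68.7, 78.2 and 71.6 CPM against 246, 229.8, 259.6 and 222 CPM (log2 fold change -1.78 ± 0.07, adjusted p = 1e-11), and Agt, angiotensinogen, 1075, 1022, 1130.0 and 1097 CPM against 2761, 2912, 2760.3 and 2566 CPM (log2 fold change -1.39 ± 0.05, adjusted p = 5e-12). Every IGF-1 library lay above every CNTF library in these genes. Apoe, the lipid carrier, was higher in IGF-1 by a smaller fold (-0.51 ± 0.07), at 12595 ± 956 against 17447 ± 1412 CPM. The members higher in CNTF were led by the synapse-promoting thrombospondin Thbs2 (2.53 ± 0.11), followed among the genes named by the gliogenic factors Nfia (0.90 ± 0.05) and Sox9 (0.68 ± 0.06) and the chaperone Clu (0.64 ± 0.05).

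Genes of the oligodendrocyte lineage were mostly higher with IGF-1, and the median difference was larger for committed and myelinating stages than for progenitors, a contrast between lists that was not tested. Of the oligodendrocyte progenitor genes, 2 of 22 tested members were higher in CNTF and 12 in IGF-1 (median -0.31). Of the genes of committed precursors, 0 of 17 tested members were higher in CNTF and 14 in IGF-1 (median -1.13), and of the genes of myelinating oligodendrocytes, 2 of 22 tested members were higher in CNTF and 14 in IGF-1 (median -1.09). Pdgfra, the receptor that marks progenitors, was higher in CNTF, at 166, 177, 160.0 and 181 CPM against 74.8, 77.6, 63.2 and 70.5 CPM (log2 fold change 1.22 ± 0.05, adjusted p = 1.4e-11). Cspg4, the progenitor proteoglycan NG2, was lower in CNTF (-0.34 ± 0.06, adjusted p = 0.00031), and Sox10, the lineage factor, passed at adjusted p = 0.0087 (-0.24 ± 0.07) with overlapping libraries, a call lost on leaving out any of 6 of the 8 libraries. The adhesion-associated protein Lims2 (-2.52 ± 0.05) and the sialidase Neu4 (-2.02 ± 0.07) had the largest differences of the progenitor group. Olig1 measured 1737 to 1938 CPM in CNTF and 1634 to 1963 CPM in IGF-1 and did not pass (adjusted p = 0.98).

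Among genes of committed precursors, Gpr17, the receptor of cells about to differentiate, measured 411, 440.1, 398 and 466 CPM in CNTF and 1642, 1737, 1343 and 1505 CPM in IGF-1 (log2 fold change -1.90 ± 0.06, adjusted p = 2.7e-13). Myrf, the transcription factor that switches on myelin genes, measured 31.1, 34.0, 30.8 and 36.5 CPM against 97.2, 100.2, 73.9 and 93.4 CPM (log2 fold change -1.50 ± 0.07, adjusted p = 4.7e-11). Enpp6, a choline phosphodiesterase of newly formed oligodendrocytes, measured 11.3, 13.0, 12.2 and 12.1 CPM against 61.6, 56.8, 58.7 and 63.2 CPM (log2 fold change -2.36 ± 0.07, adjusted p = 1.4e-13). These 3 genes mark steps between progenitor and myelinating cell, and for each the groups were fully apart. Bcas1 (-1.13 ± 0.06) and the long noncoding transcript 9630013A20Rik (-4.19 ± 0.18) were higher in IGF-1 as well. Among myelin genes, Mbp, myelin basic protein, measured 259.7, 276, 303 and 308 CPM against 1507, 1491, 1323 and 1287 CPM (log2 fold change -2.33 ± 0.06, adjusted p = 5.3e-14). The fatty acid hydroxylase Fa2h (-2.30 ± 0.06) and the sulfatide enzyme Gal3st1 (-1.58 ± 0.07), which make myelin lipids, and Mag (-1.24 ± 0.09) and Cnp (-1.05 ± 0.05) were also higher in IGF-1. Mog, a late myelin surface protein, was at 1.32 to 1.68 CPM in CNTF and 1.44 to 1.58 CPM in IGF-1 and did not pass (adjusted p = 0.83). In the fit of 4 groups, where all calls in IGF-1 fell from 2827 to 1773, 9 rather than 14 myelin genes were called in IGF-1. Mag was not called there. The list's largest exception was Trf, transferrin, which measured 116, 109, 111 and 111 CPM in CNTF and 17.6, 18.2, 14.9 and 16.4 CPM in IGF-1 (log2 fold change 2.69 ± 0.05, adjusted p = 1.4e-15) and which liver also makes as a plasma iron carrier.

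**Figure D3:**
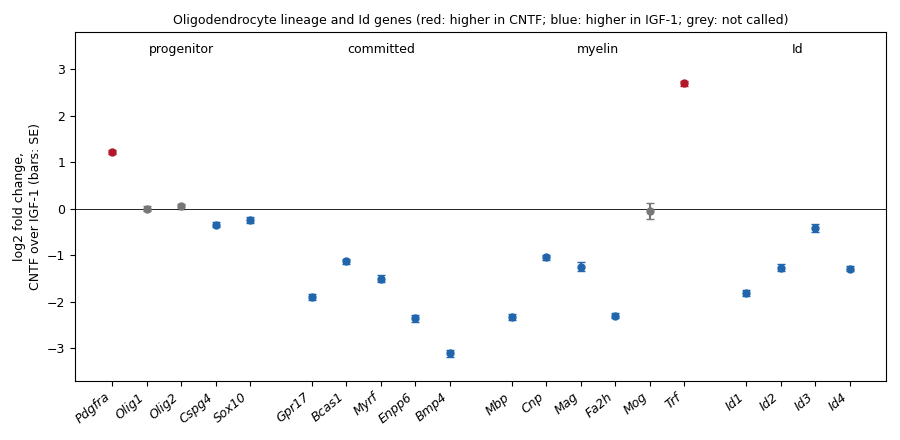
Log2 fold changes (CNTF over IGF-1, vertical axis) with standard errors as bars are drawn for 16 oligodendrocyte lineage genes, in the order progenitor, committed precursor and myelin, and for 4 Id genes, with genes that did not pass in grey. Most points lie below 0, such as Gpr17 (-1.90) and Id1 (-1.82), and Pdgfra (1.22) and Trf (2.69) stand above it.

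Id proteins, which hold back neural differentiation factors and are induced by bone morphogenetic proteins (BMP), were higher with IGF-1. Of the Id proteins and BMP signalling genes, 3 of 20 tested members were higher in CNTF and 12 in IGF-1 (median -0.52). Id1 measured 83.9, 75.5, 84.7 and 78.2 CPM in CNTF and 278, 279, 287 and 255 CPM in IGF-1 (log2 fold change -1.82 ± 0.06, adjusted p = 1.5e-12). Id2 (-1.27 ± 0.07), Id4 (-1.29 ± 0.05) and Id3 (-0.42 ± 0.09) went the same way by smaller amounts. The ligand Bmp4 measured 10.7, 9.46, 10.1 and 11.5 CPM against 90.9, 90.4, 88.3 and 80.5 CPM (log2 fold change -3.11 ± 0.07, adjusted p = 7.7e-15). In SPONT, Bmp4 ran from 13.3 to 56.1 CPM and Id1 from 106 to 176 CPM, between the treatments for both genes. The type II receptor Bmpr2 was higher in CNTF (0.55 ± 0.13), but not in the fit of 4 groups, where Id3 did not pass either.

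Proliferation genes were higher with CNTF almost without exception. Of the proliferation genes, 34 of 36 tested members were higher in CNTF and 0 in IGF-1 (median 0.97), and the remaining members, Ccne1 (0.29 ± 0.10) and Ccne2 (0.60 ± 0.19), did not pass and are named after their values were seen. Mki67, the antigen of cycling cells, measured 97.7, 93.9, 100.2 and 103 CPM in CNTF and 46.4, 44.1, 41.7 and 35.7 CPM in IGF-1 (log2 fold change 1.19 ± 0.07, adjusted p = 4.5e-10), while the NPC at passage 15 held 132 to 168 CPM. Top2a, which untangles chromosomes, measured 159, 158, 155 and 159 CPM against 69.4, 66.1, 59.8 and 60.0 CPM (log2 fold change 1.26 ± 0.05, adjusted p = 5.2e-12). Ccna2 (1.30 ± 0.07), the spindle motor Kif11 (1.24 ± 0.07), the checkpoint kinase Bub1b (1.20 ± 0.06), Ccnb1 (1.04 ± 0.11) and the replication helicase subunit Mcm2 (0.60 ± 0.05) all had every CNTF library above every IGF-1 library. The D cyclins that lead cells out of rest showed it too, Ccnd1 at 313 ± 15.9 against 117 ± 10.0 CPM (1.38 ± 0.05) and Ccnd2 at 64.4 ± 2.82 against 23.6 ± 2.10 CPM (1.40 ± 0.06). Of the genes of cell cycle entry and arrest, 8 of 18 tested members (44.4%) were higher in CNTF and 4 (22.2%) in IGF-1. Their median was 0.02, with 4 towards CNTF in the fit of 4 groups. Rb1 (0.95 ± 0.07) and Gadd45g (0.83 ± 0.14) were higher in CNTF, and Gadd45b (-0.82 ± 0.08) and Cdkn1c (-0.32 ± 0.05) were higher in IGF-1. Cdkn1a, the p21 inhibitor, measured 163 to 172 CPM in CNTF and 156 to 183 CPM in IGF-1 and did not pass (adjusted p = 0.57).

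Other signalling and lineage lists were less uniform, and over all genes tested 18.8% were higher in each direction. Of the feedback genes of ERK signalling, 7 of 19 tested members were higher in CNTF and 1 in IGF-1 (median 0.36), with Ier3 (1.18 ± 0.11), Dusp5 (1.12 ± 0.10) and the ETS factor Etv5 (0.76 ± 0.09) higher in CNTF. Of the Notch signalling genes, 6 of 18 tested members were higher in CNTF and 7 in IGF-1 (median 0.12). The receptor Notch1 (0.79 ± 0.07), the ligand Dll1 (0.85 ± 0.09) and the target Hes1 (0.70 ± 0.07) were higher in CNTF, whereas the targets Heyl (-2.30 ± 0.13) and Hey1 (-0.49 ± 0.05) were higher in IGF-1. Of the neural progenitor genes, 5 of 19 tested members (26.3%) were higher in CNTF and 4 (21.1%) in IGF-1, near the share of all genes. Their median was 0.08, with 3 towards CNTF in the fit of 4 groups. The progenitor factors Sox2 (0.12 ± 0.05, adjusted p = 0.076) and Pax6 (-0.05 ± 0.06, adjusted p = 0.50) did not pass. Fabp7, the brain fatty acid binding protein of radial glia, was higher in IGF-1 (-0.68 ± 0.07). Of the neuronal genes, 8 of 22 tested members were higher in CNTF and 4 in IGF-1 (median 0.07). Tubb3, neuronal tubulin (1.32 ± 0.05), and Gap43, a growth cone protein (1.26 ± 0.05), were higher in CNTF, and the adhesion molecule Ncam1 (-1.17 ± 0.06) in IGF-1. Dcx, of migrating neuroblasts, did not pass (-0.13 ± 0.09, adjusted p = 0.27).

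Genes of the IGF axis were more often higher in the cultures that received CNTF than in those that received IGF-1. Of its genes that passed the filter, 10 of 21 tested members were higher in CNTF and 2 in IGF-1 (median 0.22). Igf2, the fetal growth factor, measured 20.3, 19.5, 19.7 and 19.3 CPM in CNTF and 0.918, 0.893, 1.16 and 2.10 CPM in IGF-1 (log2 fold change 3.90 ± 0.19, adjusted p = 7.9e-11). Igf1r, the receptor of IGF-1, measured 40.1, 40.4, 36.0 and 41.0 CPM against 28.4, 25.6, 23.7 and 24.9 CPM (log2 fold change 0.58 ± 0.06, adjusted p = 1.1e-06), and Igf2r, which clears IGF-2, 7.12 ± 0.483 against 2.22 ± 0.222 CPM (1.64 ± 0.11). Both treatments' libraries were fully apart for these genes, and in SPONT Igf1r ran from 37.9 to 52.2 CPM. The binding protein Igfbp2 (0.80 ± 0.05) was higher in CNTF, and the binding protein Igfbp5 did not pass (-0.04 ± 0.05, adjusted p = 0.55). Pik3r1, the regulatory subunit of PI3 kinase, was higher in IGF-1 (-0.70 ± 0.05). Of the FoxO targets, which Akt lowers when insulin or IGF-1 signals, 4 of 19 tested members (21.1%) were higher in CNTF and 6 (31.6%) in IGF-1. Their median was -0.12, and their counts against SPONT are given below. Klf15 (-0.75 ± 0.06), Cited2 (-0.69 ± 0.08) and catalase, Cat (-0.45 ± 0.05), were higher in IGF-1. Foxo1 (0.48 ± 0.05) was higher in CNTF, and Irs2 measured 10.4 to 16.0 CPM in CNTF and 13.0 to 20.3 CPM in IGF-1 without passing (adjusted p = 0.050).

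Sterol synthesis leaned to IGF-1 without an exception among its calls. Of the sterol synthesis genes, 0 of 25 tested members were higher in CNTF and 16 in IGF-1 (median -0.30), and 10 were called in IGF-1 in the fit of 4 groups. Msmo1, a demethylase of the pathway, measured 82.6, 91.6, 96.9 and 93.3 CPM in CNTF and 142, 166, 153 and 165 CPM in IGF-1 (log2 fold change -0.83 ± 0.07, adjusted p = 3e-08). Insig1 (-0.71 ± 0.06), which retains the sterol sensor, the decarboxylase Mvd (-0.65 ± 0.06), Dhcr7 (-0.57 ± 0.06), the last enzyme of cholesterol synthesis, and Hmgcs1 (-0.40 ± 0.05) were lower in CNTF too. Of the fatty acid synthesis genes, 2 of 15 tested members were higher in CNTF and 8 in IGF-1 (median -0.19), with the master regulator Srebf1 (0.48 ± 0.05) higher in CNTF and Thrsp (-0.68 ± 0.06) and Acss2 (-0.46 ± 0.06) higher in IGF-1. Of the ATF4 targets and amino acid enzymes, 5 of 24 tested members were higher in CNTF and 11 in IGF-1 (median -0.15), and in that fit 1 and 6. Phgdh, which starts serine synthesis, was higher in IGF-1, at 655 ± 35.1 against 1095 ± 79.5 CPM (-0.79 ± 0.06), and Psat1, the next enzyme of that pathway, was higher in CNTF, at 442 ± 12.3 against 326 ± 17.9 CPM (0.39 ± 0.05). Of the glycolysis and glucose transport genes, 5 of 21 tested members (23.8%) were higher in CNTF and 8 (38.1%) in IGF-1 (median 0.01). Over all genes tested, 18.8% were higher in each direction. Directions split between forms of the same step. The phosphofructokinases Pfkp (1.39 ± 0.07) and Pfkl (0.55 ± 0.07), the transporter Slc2a3 (1.29 ± 0.05) and Ldha (0.41 ± 0.05) were higher in CNTF. Hk1 (-0.68 ± 0.06), Slc2a1 (-0.52 ± 0.05) and Ldhb (-0.95 ± 0.06) were higher in IGF-1.

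Cytosolic ribosomal protein genes were lower with CNTF than with IGF-1 as a set, and their counts against SPONT are given below. Of these genes, 0 of 77 tested members were higher in CNTF and 69 in IGF-1 (median -0.38), which fell to 20 calls in the fit of 4 groups, and together they took between 1.82% and 2.30% of all counts in CNTF libraries and between 2.45% and 2.82% in IGF-1 libraries. Their reads can be shared with processed pseudogenes, and Rpl22 is itself the tagged subunit. Genes of the respiratory chain and ATP synthase, a list chosen after the values were seen, were alike in direction. Of these, 0 of 87 were higher in CNTF and 77 in IGF-1 (median -0.50), with between 1.51% and 1.69% of counts in CNTF and between 2.08% and 2.28% in IGF-1. Both sets consist largely of short transcripts, with 54 of 77 ribosomal protein genes and 59 of 82 respiratory genes of known length in the shortest of 5 equal length classes of all genes. Across all genes, the share higher in IGF-1 fell from 28.7% in the shortest class to 14.6% in the longest, and the share higher in CNTF rose from 12.1% to 27.2%. The 2642 genes of the shortest class that are neither ribosomal protein nor respiratory genes had a median of -0.13, with 26.0% of them higher in IGF-1, and the part of transcript length in these results was not tested.

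Matrix genes divided by kind. Of the lecticans, tenascins and proteoglycans, 3 of 16 tested members were higher in CNTF and 9 in IGF-1 (median -0.33). The brain lectican Bcan (-0.95 ± 0.05), the glial proteoglycan Cspg5 (-0.67 ± 0.05), Gpc3 (-1.84 ± 0.09) and the tenascin Tnc (-0.60 ± 0.07) were higher in IGF-1, and the cell surface proteoglycans Sdc3 (0.73 ± 0.05) and Gpc1 (0.51 ± 0.05) in CNTF. Of the mesenchymal matrix and contractile genes, 15 of 26 tested members were higher in CNTF and 2 in IGF-1 (median 0.52). Col6a1, a collagen VI chain, measured 102, 111, 94.3 and 114 CPM in CNTF and 8.03, 8.83, 7.61 and 9.58 CPM in IGF-1 (log2 fold change 3.58 ± 0.08, adjusted p = 4e-15). Fibronectin, Fn1, measured 202, 216, 202 and 213 CPM against 113, 121, 99.0 and 99.4 CPM (log2 fold change 0.91 ± 0.05, adjusted p = 4.1e-10), and the collagen V chain Col5a1 was also higher in CNTF (1.45 ± 0.09). Col1a1, the chain typical of fibroblasts, measured 2.89 to 4.22 CPM in CNTF and 3.18 to 5.25 CPM in IGF-1 and did not pass (adjusted p = 0.77).

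Markers of other cell types were few and mostly low. Of the endothelial and mural markers, 3 of 5 tested members were higher in CNTF and 1 in IGF-1 (median 1.38), and 5 of its 10 genes did not reach the filter. Kcnj8, a potassium channel subunit of pericytes, measured 38.5, 37.9, 36.5 and 34.5 CPM in CNTF and 3.32, 4.52, 4.79 and 4.17 CPM in IGF-1 (log2 fold change 3.09 ± 0.10, adjusted p = 6.8e-13). Of the microglia and myeloid markers, 0 of 6 tested members were higher in CNTF and 1 in IGF-1 (median -0.51), and their receptor Csf1r measured 0.160 to 0.470 CPM in CNTF and 0.0561 to 0.282 CPM in IGF-1. All 15 microglia and myeloid markers together summed to between 3.22 and 3.77 CPM in the CNTF libraries and between 4.18 and 7.61 CPM in the IGF-1 libraries, and their part in any result was not tested. Of the pluripotency markers, 0 of 3 tested members were higher in CNTF and 1 in IGF-1 (median -0.71).

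**Figure D4:**
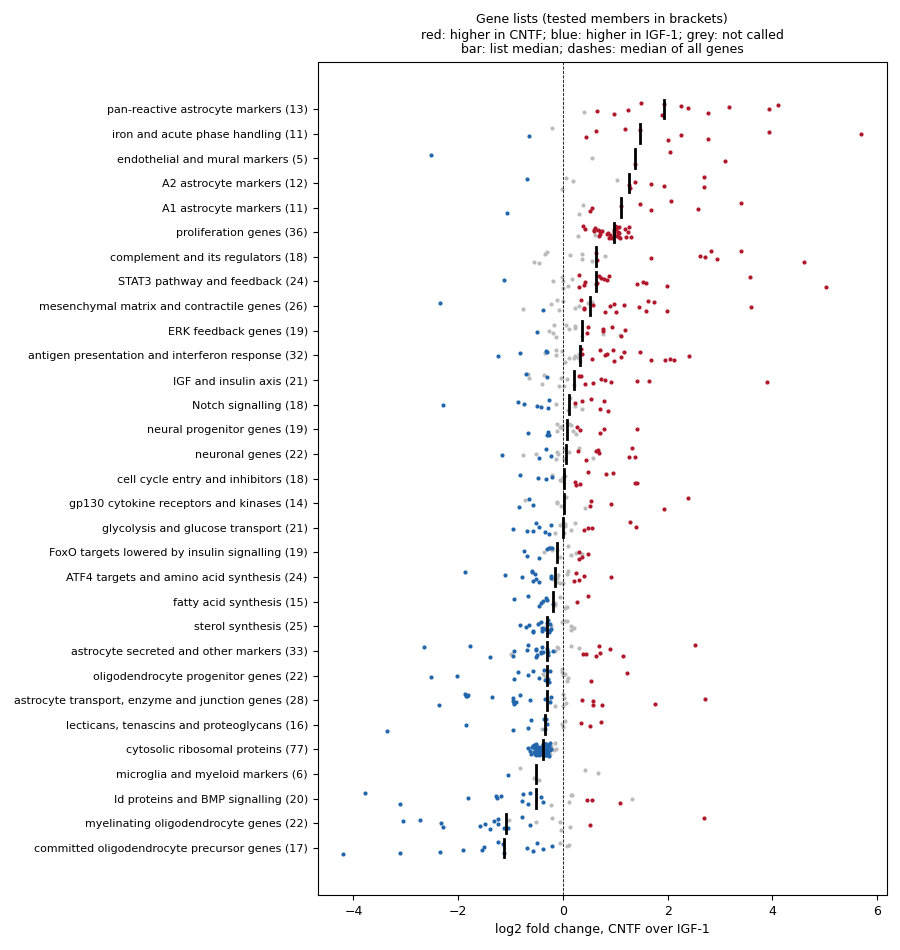
Each point is the log2 fold change (CNTF over IGF-1, horizontal axis) of 1 tested member of 31 gene lists, coloured by call, with the median of each list as a bar and that of all genes (-0.01) as a dashed line. The medians run from -1.13 for committed oligodendrocyte precursor genes to 1.94 for pan-reactive markers, and the proliferation and ribosomal protein points lie close together, on opposite sides of 0.

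SPONT, the same medium without an added factor, places these differences, although it serves as the control of both treatments and its replicate 2 stands apart from the others. Against SPONT, CNTF raised 1600 and lowered 1361 of 14879 genes (19.9% of those tested, 10.8% and 9.15%), and IGF-1 raised 418 and lowered 561 of 14941 (6.55%, 2.80% and 3.75%). Without SPONT replicate 2 the counts were 2948 and 3101 for CNTF and 2670 and 3054 for IGF-1. Without another library, the counts for IGF-1 fell to 250 and 263 (SPONT replicate 1) or to 1 gene or none in all (SPONT replicate 3 or 4 or any IGF-1 library). Between 5142 and 6156 genes then had an unadjusted p below 0.05, and the calls of IGF-1 against SPONT thus depend on single libraries. For CNTF the genes lowered fell to between 840 and 898 without CNTF replicate 1, 2 or 3. By medians of the libraries, SPONT lay between the treatments in 378 of the 702 genes more than 2-fold higher in CNTF, nearer to IGF-1 in 295 of them and nearer to CNTF in 83. It was below both treatments in 305 and above both in 19. Among the 591 genes more than 2-fold higher in IGF-1, SPONT lay between the treatments in 412, nearer to IGF-1 in 284 and nearer to CNTF in 128, above both in 157 and below both in 22.

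The gene lists were also counted against SPONT, the control that both treatments share. For the pan-reactive markers CNTF gave 12 higher and 0 lower of 13 and IGF-1 gave 2 higher and 0 lower of 12 (4 higher and 1 lower of 13 without SPONT replicate 2). Proliferation genes were 33 higher and 0 lower of 36 with CNTF and 0 higher and 0 lower of 36 with IGF-1 (12 higher and 1 lower of 36 without that library). In that IGF-1 comparison, 13 of the 36 were higher and 1 lower at an unadjusted p under 0.05 by edgeR, and DESeq2 called 6 higher. Among astrocyte transport, enzyme and junction genes CNTF gave 4 higher and 16 lower of 28 and IGF-1 1 higher and 2 lower of 28 (1 higher and 10 lower of 28 without it). Sterol synthesis genes were 1 higher and 11 lower of 25 with CNTF and 0 higher and 2 lower of 25 with IGF-1. Leaving out SPONT replicate 2 gave 2 higher and 18 lower with CNTF and 3 higher and 9 lower with IGF-1. Myelinating oligodendrocyte genes were 2 higher and 3 lower of 21 with CNTF, and they were 1 higher and 0 lower of 23 with IGF-1. Without that library they were 2 higher and 6 lower of 21 with CNTF and 10 higher and 0 lower of 23 with IGF-1. Committed precursor genes were 1 higher and 7 lower of 17 with CNTF and 3 higher and 0 lower of 17 with IGF-1 (6 higher and 2 lower of 17 without it). Oligodendrocyte progenitor genes were 0 higher and 13 lower of 22 with CNTF and 0 higher and 5 lower of 22 with IGF-1. Leaving out SPONT replicate 2 gave 1 higher and 15 lower with CNTF and 3 higher and 12 lower with IGF-1. Id and BMP genes were 1 higher and 6 lower of 20 with CNTF and 5 higher and 0 lower of 20 with IGF-1. Without that library they were 2 higher and 11 lower of 20 with CNTF and 7 higher and 3 lower of 20 with IGF-1. Ribosomal protein genes were 0 higher and 0 lower of 77 with CNTF (median 0.07). With IGF-1 they were 3 higher and 0 lower of 77 (median 0.46). Leaving out SPONT replicate 2 gave 21 higher and 0 lower with CNTF and 77 higher and 0 lower with IGF-1. FoxO targets were 0 higher and 6 lower of 19 with CNTF (median -0.39). With IGF-1 they were 0 higher and 2 lower of 19 (median -0.31). Leaving out SPONT replicate 2 gave 0 higher and 11 lower with CNTF and 0 higher and 12 lower with IGF-1. As a single gene, Mbp in SPONT ran from 114 to 749 CPM, from below every CNTF library to above every one of them but below every IGF-1 library.

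CNTF was also given on top of 5% FBS, in libraries that share none with the comparison above, although the labels give no dose of CNTF there. CNTF with 5% FBS against 5% FBS alone changed 1725 genes upwards and 1839 downwards of 15272 tested (23.3%, 11.3% and 12.0%). The counts were between 1037 and 1148 upwards and between 931 and 1060 downwards when any of the 4 libraries with CNTF and serum was left out. Of the 2796 genes higher in CNTF than in IGF-1 and tested here, 634 were raised by CNTF in serum, which is 22.7% of them and 37.4% of the 1693 raised genes tested in both. A further 190 were lowered (6.80% and 10.6%). Of the 2757 genes higher in IGF-1, 838 were lowered (30.4% of them and 46.8% of the 1789 lowered genes) and 118 were raised (4.28% and 6.97%). Among all 14669 genes tested in both comparisons, 11.5% were raised and 12.2% lowered. Across these genes the fold changes of the comparisons had a Pearson's r of 0.37 and a Spearman's rho of 0.36, given as a description over genes, which are not independent replicates.

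The gene lists were counted in serum in the same way. Of the pan-reactive markers CNTF in serum gave 1 higher and 0 lower of 13, of the proliferation genes 0 higher and 0 lower of 36, and of the STAT3 pathway genes 2 higher and 5 lower of 24. Of the 36 proliferation genes, 2 were lower and 0 higher in serum at an unadjusted p under 0.05 by edgeR, and DESeq2 called 1 lower. Ribosomal protein genes were 0 higher and 71 lower of 77 and mesenchymal matrix and contractile genes 1 higher and 20 lower of 26, the latter opposite to their direction in serum-free medium. Gfap measured 15523 ± 3611 CPM in 5% FBS and 14685 ± 739 CPM with CNTF added (log2 fold change -0.16 ± 0.16, adjusted p = 0.46). Socs3 measured 39.9 ± 6.58 CPM in 5% FBS and 60.7 ± 5.05 CPM with CNTF added (0.53 ± 0.11, adjusted p = 0.0050), and Lcn2 35.3 ± 20.6 CPM in 5% FBS and 28.4 ± 2.68 CPM with CNTF added (-0.40 ± 0.33, adjusted p = 0.37). Fn1, higher in CNTF than in IGF-1 above, measured 775 ± 57.4 CPM in 5% FBS and 268 ± 32.1 CPM with CNTF added (-1.60 ± 0.10, adjusted p = 7.6e-06). Among the genes with the largest differences between the treatments, Cdsn had a log2 fold change of 1.20 ± 0.30, adjusted p = 0.0099 on adding CNTF to serum. Itih4 (0.11 ± 0.34, adjusted p = 0.83) and Slc27a3 (0.14 ± 0.11, adjusted p = 0.34) did not pass there. Id1 measured 332 ± 21.3 CPM in 5% FBS and 126 ± 4.05 CPM with CNTF added (-1.47 ± 0.06, adjusted p = 9.2e-07).

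**Figure D5:**
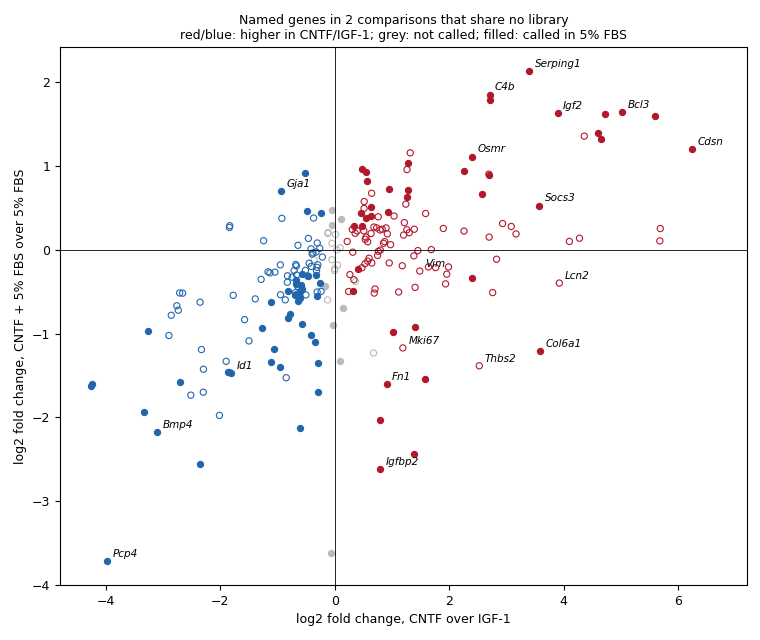
The fold change of CNTF with 5% FBS over 5% FBS (log2, vertical axis) is plotted against that of CNTF over IGF-1 (log2, horizontal axis) for 240 named genes tested in both comparisons, which share no libraries. Many genes far to the right on the horizontal axis lie near 0 on the vertical axis, and Gfap has values of 0.65 and -0.16.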

How the data were processed

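Poly-A RNA recovered with the tagged ribosomes was sequenced in paired reads. The authors aligned trimmed reads to the mouse genome (mm10) with HISAT2 after Trimmomatic and deposited whole-number counts per Entrez gene from featureCounts, 27179 genes per library, with both mates counted. Symbols were matched through RefSeq and GENCODE tables, and 1886 genes stayed unnamed. The deposited counts were tested in edgeR 4.0.16 (R 4.3.3) by the quasi-likelihood test with TMM scaling, filterByExpr (minimum count 10) and Benjamini-Hochberg adjustment at 0.01, on the 2 groups compared. CPM was computed over all counts of a library, and a standard error is the log2 fold change divided by the root of its F. Scripts were tested on simulated data. DESeq2 1.42.0, other scaling, filters, a replicate block, a fit of 4 groups (SPONT, CNTF, IGF-1, 1% FBS) and leaving out each library were alternatives. Depth was 55269375 to 77968355 counts per library, and a count of 0 allows up to 3 counts.

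The 33 gene lists and the choice of comparison were made with earlier results of these data known. Genes were named as the anchors of each list, as up to 4 called members of a list in each direction with the largest change and at least 5 CPM in a group, and as the 12 genes of at least 10 CPM with the largest change in each direction whose libraries did not overlap. Some genes named by this rule are given only through their list's counts or are not reported here. Genes named outside it are marked. Promoters came from RefSeq on GRCm38.p6, and the listing of promoters with matches left out a chromosome. The other libraries of the series were not used here.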

Additional observations from a re-analysis of the deposited data

Results flagged for a closer look

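A library stood apart from the other 3 of its group, by Dixon's test of its gap to the nearest library over the range of the group (95% limit), in 19 of 363 groups of 4 among the genes named. Chance gives about 1 in 20 such groups, so that their number is near what chance gives. In the CNTF libraries, in CPM, the library above the others was C4b at 159 (others 148 to 148, replicate 1), Ccne2 at 2.01 (others 1.47 to 1.54, replicate 2), Hes1 at 53.4 (others 44.4 to 45.5, replicate 3), Id4 at 74.5 (others 69.9 to 70.3, replicate 4), Insig1 at 68.5 (others 65.4 to 65.9, replicate 4), Serping1 at 13.0 (others 11.0 to 11.2, replicate 3) and Vim at 6061 (others 5654 to 5713, replicate 3). In the CNTF libraries, in CPM, the library below the others was Igf1r at 36.0 (others 40.1 to 41.0, replicate 3), Lifr at 14.7 (others 17.7 to 18.3, replicate 3), Ppp2r2c at 3.75 (others 4.18 to 4.24, replicate 3), S1pr3 at 673 (others 742 to 751, replicate 3) and Vtn at 105 (others 114 to 115, replicate 2). In the IGF-1 libraries, in CPM, the library above the others was Ifitm3 at 11.1 (others 9.83 to 10.0, replicate 3), Lcn2 at 4.45 (others 3.57 to 3.70, replicate 4) and Tap1 at 10.8 (others 9.07 to 9.32, replicate 2). In the IGF-1 libraries, in CPM, the library below the others was Apoe at 15347 (others 17898 to 18324, replicate 4), Gadd45g at 300.4 (others 414 to 433, replicate 4), Il11ra1 at 35.4 (others 39.9 to 40.7, replicate 4) and Notch1 at 97.7 (others 116 to 119, replicate 3).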

How the results depend on the processing

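The counts of CNTF against IGF-1 (2817 higher and 2827 lower) stayed within 1.5 times under every alternative, with 1 exception. That was the count of genes lower in CNTF in the fit of 4 groups, which gave 2025 higher and 1773 lower. The counts were 2827 and 2801 with DESeq2's size factors, 3150 and 3130 with DESeq2, 2898 and 2902 with no filter, and 2657 and 2697 with a stricter one. Leaving out 1 library gave 2428 to 2940 and 2337 to 2834. Replicate numbers gave correlations of 0.02, -0.02, 0.10 and 0.05 between the libraries of CNTF and IGF-1 that share a number. Of these, 3 of 4 matched their own number best, and whether the numbers pair the libraries was not tested. The replicate block gave 3259 and 3266. Against SPONT, the genes lowered by CNTF were 2124 with DESeq2, 889 with the block and 840 to 3101 on leaving out 1 library, and those raised 1186 to 2948. For IGF-1 against SPONT, DESeq2 gave 1631 higher and 1971 lower, the block 1 and 0 (with 5999 genes at an unadjusted p below 0.05), and leaving out 1 library 0 to 2670 and 0 to 3054. For CNTF in 5% FBS, the block gave 1220 lower, and leaving out 1 library 1037 to 1949 higher and 931 to 1959 lower. The cause of these differences was not tested. Of 186 genes named with a test, 166 were called; no called gene changed sign, 6 lost the call in the fit of 4 groups and 1 under another alternative. Sign changes occurred in genes that did not pass: on leaving out 1 library, Col1a1 ran from -0.13 to 0.14, Mog ran from -0.11 to 0.014, Olig1 ran from -0.026 to 0.033 (and was 0.0053 in the fit of 4 groups), Slc1a3 ran from -0.028 to 0.11. Scaling moved the median of all genes by less than 0.1. Halving every count, tried because both mates of a pair were counted, gave 2798 and 2824, and lower depth was not simulated.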

Other observations

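Early response genes, which cells switch on within minutes of a stimulus, split the CNTF libraries. Among 10696 tested genes of at least 5 CPM, CNTF replicates 3 and 4 were both more than 2 times above replicates 1 and 2 in 7 genes, Dusp1, Egr1, Egr2, Fos, Ier2, Junb and Socs3, and in 0 genes was the reverse seen. Fos, an AP-1 subunit, measured 168, 171, 419 and 461 CPM in the CNTF libraries and 123, 135, 89.8 and 98.1 CPM in the IGF-1 libraries. Egr1 measured 30.2, 36.6, 199 and 231 CPM against 65.1, 76.3, 44.2 and 43.0 CPM and did not pass (edgeR's adjusted p = 0.068). These genes were chosen after their values were seen. Every CNTF library was above every IGF-1 library for Fos, Junb and Socs3, and not for Egr1.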
